A study of Mus musculus with 6 samples.

Results

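Galectins are lectins that bind beta-galactoside sugars on glycoproteins and glycolipids, and the 5 genes described here are the galectins Lgals1, Lgals3, Lgals8 and Lgals9 and the galectin-3 binding glycoprotein gene Lgals3bp. The rule takes them by symbol, and they make up 5 of the 55487 gene rows of the study's count table. All 5 passed the low-count filter that left 14478 tested genes. The RNA (poly(A) libraries) came from macrophages grown out of the bone marrow of female wild-type Balb/c mice, 6 to 12 weeks old. The marrow cells of both groups grew for 8 days with 20% L929 fibroblast conditioned medium and were then polarized for 24 hours toward the M2 state with IL-4 and IL-13, both at 10 ng/mL. One group of 3 libraries (NP) came from macrophages that received 200 µg/mL of nanoparticles, given in the series title as poly(lactide-co-glycolide) and in the sample labels as PEMA, for 24 hours. The other group of 3 libraries (PBS) came from macrophages that received the vehicle. The labels do not say whether the libraries of a group were separate cultures or animals, and the spread that p-values are read against may therefore be technical.

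Galectins are made in the cytosol and lack a signal peptide, although several of them also reach the cell surface. Inside cells, galectin-3, galectin-8 and galectin-9 bind the sugars on the inner face of endosomes and lysosomes once these membranes break, and so mark damaged vesicles for repair or autophagy. Galectin-3, long known as Mac-2, is an abundant macrophage protein. Galectin-1 has a single carbohydrate-binding domain and acts on immune cells outside the cell, while galectin-8 and galectin-9 each join a pair of such domains in 1 chain. Lgals3bp encodes a secreted glycoprotein that carries galectin ligands and is no galectin itself.

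Total counts were 60702163 to 69450411 in NP libraries and 41974957 to 56265590 in PBS libraries, and the NP libraries were all the deeper ones. The macrophage label matched its markers: Lyz2, Cd68, Csf1r, Adgre1, Itgam, Mrc1, Mertk and Fcgr1 were all detected, with summed levels of 9898 to 10921 CPM in NP and 12931 to 13040 CPM in PBS. Levels in CPM are a gene's count relative to the library's sum over the tested genes, scaled by trimmed-mean (TMM) factors. Markers of mast cells and basophils had 0 counts, erythroid, eosinophil and B cell markers had at most 7 counts in any library, and the fibroblast markers summed to 0.943 to 1.38 CPM in NP and 0.755 to 1.52 CPM in PBS. Neutrophil markers summed to 0.895 to 1.13 CPM in NP and 0.584 to 0.825 CPM in PBS, and dendritic cell markers to 2.62 to 3.15 CPM in NP and 1.62 to 3.59 CPM in PBS. In these 3 lists 1 gene each was called higher, namely Pdgfra, S100a8 and Ccr7, all at under 1 CPM in every library. The markers of alternative activation summed to 761 to 899 CPM in NP and 1549 to 1768 CPM in PBS, with 3 of 5 called lower (Mrc1, Clec10a and Arg1). Most of that difference was Mrc1, with means of 467 CPM in NP and 1165 CPM in PBS, which is also counted among the macrophage markers. Chil3 and Retnla were not called (log2 fold changes -0.15 and -0.57). Olfactory and vomeronasal receptor genes summed to 9.62 to 11.8 CPM of all counts in NP and to 12.4, 136 and 150 CPM in PBS 1, PBS 2 and PBS 3, so PBS 2 and PBS 3 stood apart. T cell markers, led by Cd3e, summed to at most 0.0166 CPM in NP and to as much as 1.57 CPM in PBS. For the 5 members, the panel and the genes of smallest p in each list, a call lost against PBS 1 alone is given beside the gene. That comparison has 1 PBS library and no PBS replicate, so a lost call there need not mean a smaller difference.

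One galectin gene was higher and a pair of genes of the group were lower in macrophages given nanoparticles. Lgals3 rose by 24.5%, Lgals9 fell by 11.2% and Lgals3bp fell by 19.4%, while Lgals1 and Lgals8 did not pass the test. In these bulk samples, fewer cells of a type and less RNA per cell cannot be told apart. The macrophage markers moved with the groups too, with 1 of 8 higher (Cd68) and 6 of 8 lower, as did those of alternative activation, and their part in the galectin and list differences was not tested. The test was limma voom with Benjamini-Hochberg adjustment over all tested genes and a threshold of 0.05. Of the 5 members 1 was called higher, beside 19.8% of all tested genes, and 2 were called lower, beside 21.4% of all tested genes. Together 3 of 5 were called, against 41.2% of tested genes, so the share of called members is not a result about the galectins. The 2 groups' libraries were apart in 4 of 5 members, against 53.3% of all tested genes. The sizes were moderate or small: the median absolute log2 fold change was 0.28 over all called genes and 0.16 over all tested genes. Of all tested genes, 27.7% had a larger absolute change than Lgals3bp and 48.3% a larger one than Lgals9.

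**Figure D1:**
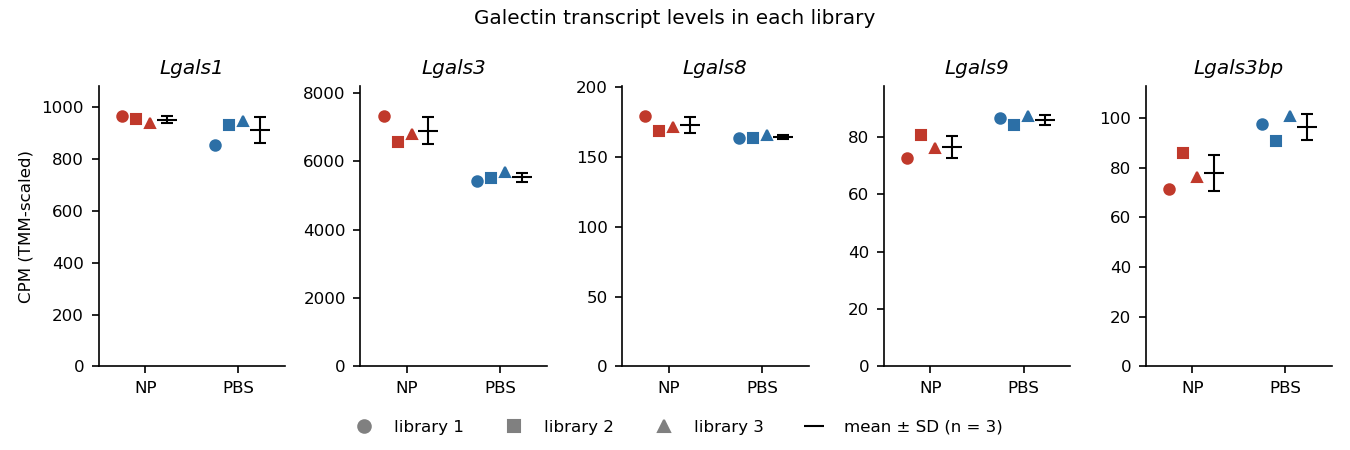
Level of each of the 5 genes in each library, in CPM scaled by TMM factors, with axes that start at 0. Coloured symbols are single libraries (NP left, PBS right) and the black bars are mean ± SD of 3 libraries. The 3 NP libraries lie above all PBS libraries for Lgals3 and Lgals8 and below them for Lgals9 and Lgals3bp, and the groups overlap for Lgals1.

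Set side by side per length, the 5 genes lay far apart in level. On a scale of counts per exonic base scaled to the same sum in every library (TPM), Lgals3 averaged 12325 ± 662 TPM in NP and 10091 ± 145 TPM in PBS (SD, n = 3 each). It ranked 5 among the 55227 gene rows that had a length. Lgals1 came next, with 3504 ± 23.4 TPM in NP and 3422 ± 162 TPM in PBS, at rank 25. Lgals8 stood at 156 ± 4.75 TPM in NP and 151 ± 0.425 TPM in PBS. Lgals9 had 119 ± 6.23 TPM in NP and 136 ± 2.42 TPM in PBS, and Lgals3bp had 90.9 ± 8.39 TPM in NP and 115 ± 5.48 TPM in PBS. The order Lgals3, Lgals1, Lgals8, Lgals9, Lgals3bp held in all 6 libraries, and no neighbours in it overlapped within a group. The level of Lgals3 was 93.7 to 116 times that of Lgals9 in NP libraries and 72.0 to 75.3 times in PBS libraries. It was 3.35 to 3.69 times that of Lgals1 in NP libraries and 2.87 to 3.08 times in PBS libraries.

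**Figure D2:**
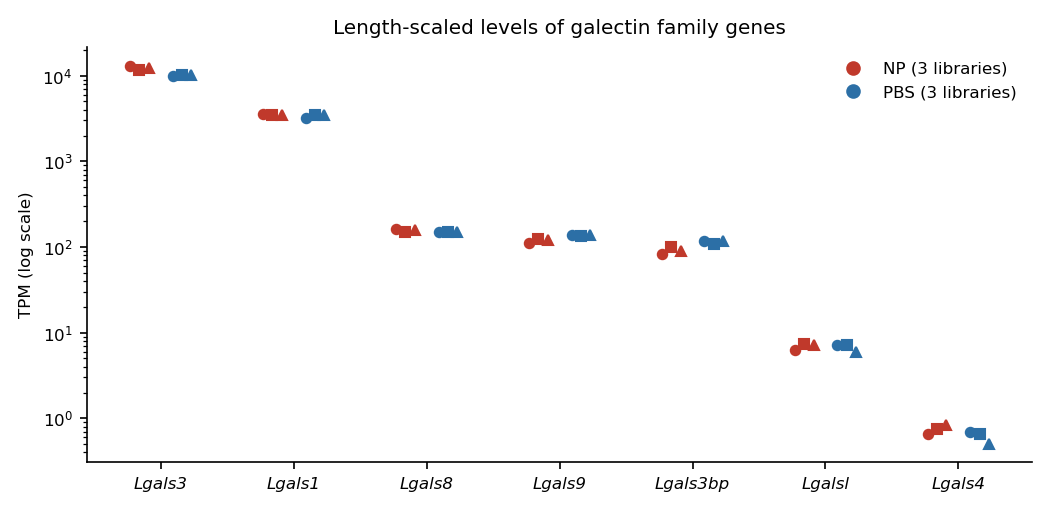
Length-scaled level (TPM, logarithmic axis) of the 5 genes and of Lgalsl and Lgals4, the other family genes that passed the filter, with NP libraries in red on the left of each gene and PBS libraries in blue on the right. Lgals3 lies highest of the 5 members in every library and Lgals3bp lowest, between 82.9 and 119 TPM.

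Lgals3, on chromosome 14 from 47367751 to 47386160 on the plus strand (GRCm38, GENCODE M21), encodes galectin-3, which gathers at broken lysosomes. It had 7318, 6563 and 6781 CPM in NP 1, NP 2 and NP 3, against 5410, 5500 and 5673 CPM in PBS 1, PBS 2 and PBS 3. All NP libraries were above all PBS libraries, with NP 1 the highest and NP 2 the nearest to PBS. The log2 fold change was 0.32 (SE 0.04, limma voom adjusted p = 4.61e-04), with a 95% interval from 0.22 to 0.41. Of all tested genes, 27.4% had a larger absolute change. Lgals3 alone took 0.717%, 0.649% and 0.675% of all counts in NP 1 to NP 3 and 0.548%, 0.559% and 0.570% in PBS 1 to PBS 3. The 5 genes together took 0.776% to 0.843% in NP and 0.669% to 0.701% in PBS, so most of the difference in that sum was Lgals3.

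Lgals8, on chromosome 13 from 12439415 to 12464944 on the minus strand, encodes galectin-8, which in human cells recruits the autophagy receptor NDP52 to damaged vesicles. It had 179, 168 and 171 CPM in NP 1 to NP 3 and 163, 163 and 166 CPM in PBS 1 to PBS 3. The groups did not overlap, but by a small margin, and the gene was not called (log2 fold change 0.07, SE 0.03, limma voom adjusted p = 0.0967). Its 95% interval, from 0.00 to 0.15, excludes a rise as large as that of Lgals3. Lgals8 was called higher without NP 2 (limma voom adjusted p = 0.0344). It shares 875 of its 25530 bases with Heatr1 on the opposite strand, whose level also rose (log2 fold change 0.17, limma voom adjusted p = 0.00241). No source used here gives the strand setting of the counting, and reads from the shared bases cannot be told apart.

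Lgals1, on chromosome 15 from 78926725 to 78930465 on the plus strand, encodes galectin-1. It had 965, 952 and 938 CPM in NP 1 to NP 3 and 854, 932 and 947 CPM in PBS 1 to PBS 3. PBS 1 was lower than the other 5 libraries, and the groups overlapped. The log2 fold change was 0.06 (SE 0.04, limma voom adjusted p = 0.254), with a 95% interval from -0.03 to 0.16. The pseudogenes Lgals1-ps1 and Lgals1-ps2, which could share reads with Lgals1, had 0 counts in all libraries.

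Lgals9 and Lgals3bp fell together. Both lie on chromosome 11 on the minus strand, Lgals9 from 78962974 to 78984946 and Lgals3bp from 118392751 to 118402092, and both are known as genes that interferons induce. Galectin-9 binds the receptor TIM-3 outside cells and, in human cells, is among the sensors of lysosome damage. Lgals9 had 72.7, 80.6 and 75.9 CPM in NP 1 to NP 3, against 86.5, 84.0 and 87.2 CPM in PBS 1 to PBS 3. All NP libraries were lower than all PBS libraries, and NP 2 was the nearest to PBS. The log2 fold change was -0.17 (SE 0.04, limma voom adjusted p = 0.00886). The gene missed the threshold in 3 alternatives by limma voom. Without NP 3 its log2 fold change was -0.16 (adjusted p = 0.0644), without the low-count filter -0.15 (adjusted p = 0.0544) and against PBS 1 alone -0.19 (adjusted p = 0.0968).

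Lgals3bp had 71.5, 85.7 and 76.3 CPM in NP 1 to NP 3, against 97.4, 90.8 and 101 CPM in PBS 1 to PBS 3. Again the groups were apart and NP 2 lay nearest to PBS. The log2 fold change was -0.31 (SE 0.06, limma voom adjusted p = 0.00399), with a 95% interval from -0.46 to -0.17. Against PBS 1 alone it was -0.33 and missed the threshold (limma voom adjusted p = 0.0545). The fewest counts behind any of these values were 3582, for Lgals9 in PBS 2.

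The windows before the starts of both genes, and that of Lgals3 for comparison, are shown because interferon-induced genes often carry a GAAANNGAA element, the core of the interferon-stimulated response element (ISRE). The sequences are RefSeq's on GRCm38.p6, a C57BL/6J assembly and not the Balb/c genome of these cells, and read 5′ to 3′ on the gene's strand over the 250 bases before the RefSeq start, with matches to the element on either strand in capitals. These RefSeq starts differ from the ends of the GENCODE M21 spans given above. The Lgals3 window lies inside its span, and those before the starts of Lgals9 and Lgals3bp lie partly inside theirs. The last line of Lgals9 holds bases 7 to 36 after its start.
Lgals9, chr11:78984925-78985174, minus strand: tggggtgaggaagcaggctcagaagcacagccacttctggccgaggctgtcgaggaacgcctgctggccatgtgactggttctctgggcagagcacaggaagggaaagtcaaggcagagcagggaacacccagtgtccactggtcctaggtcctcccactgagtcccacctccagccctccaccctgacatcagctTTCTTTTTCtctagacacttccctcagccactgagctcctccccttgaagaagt
Lgals9, chr11:78984889-78984918, minus strand: tagctgtggtTTCTGTTTCctagctcagcc
Lgals3bp, chr11:118401960-118402209, minus strand: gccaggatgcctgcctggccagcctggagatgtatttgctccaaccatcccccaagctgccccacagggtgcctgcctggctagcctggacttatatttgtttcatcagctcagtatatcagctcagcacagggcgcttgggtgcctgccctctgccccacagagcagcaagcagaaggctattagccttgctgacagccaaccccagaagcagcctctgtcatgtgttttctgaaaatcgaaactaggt
Lgals3, chr14:47373610-47373859, plus strand: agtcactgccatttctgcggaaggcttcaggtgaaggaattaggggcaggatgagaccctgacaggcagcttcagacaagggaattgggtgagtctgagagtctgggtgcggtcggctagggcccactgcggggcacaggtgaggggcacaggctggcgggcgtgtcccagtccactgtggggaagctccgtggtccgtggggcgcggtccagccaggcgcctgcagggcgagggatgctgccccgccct

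The Lgals9 window held 2 matches to GAAANNGAA, both on the strand opposite to the gene, the first base of one at -54 and of the other at 17, counted from the start. Of 32851 promoter windows of 300 bases, 8.56% held at least 1 match on either strand. The exact letters were not found in the windows of Lgals3bp, Lgals3 and Lgals8. Sequences that differ from them by 1 letter were not searched for, so an interferon element there is not excluded. The other elements searched on both strands were the gamma-activated site TTCNNNGAA (in 8.30% of windows), the 9-base kappa-B element GGGNNTTCC (5.82%), the AP-1 element TGANTCA (7.81%), the E-box CACGTG of lysosomal gene promoters (7.15%), the antioxidant response element TGACNNNGC (12.4%) and the PU.1 core GAGGAA (28.3%). Lgals9 also held 1 match to the kappa-B letters and 2 to the PU.1 core, Lgals3bp held 1 match to the PU.1 core, and Lgals3 and Lgals8 held no match to any of them. These are letter matches and not measured binding.

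Type I interferon targets, a list of 26 genes set beside Lgals9 and Lgals3bp with earlier results of these data known, fell in 21 and rose in 0 members, against 21.4% lower and 19.8% higher of all tested genes. The list's median log2 fold change was -0.59, beside -0.00 over all tested genes. Irf9, a transcription factor that interferon signalling switches on, fell by 0.40 on the log2 scale (limma voom adjusted p = 1.99e-04). Irf7, a transcription factor of interferon production, had 5.90 ± 2.29 CPM in NP and 12.4 ± 2.17 CPM in PBS (SD, n = 3 each; log2 fold change -1.16, limma voom adjusted p = 0.00244). Cmpk2, a mitochondrial nucleotide kinase, Usp18, a brake on interferon signalling, and Parp14 had log2 fold changes of -1.43, -0.74 and -0.42. The changes of Lgals9 and Lgals3bp were smaller than the list's median. The libraries were ordered in part alike. The mean of the list, as deviation of log2 CPM from its mean over the 6 libraries, was -0.53, -0.10 and -0.43 in NP 1 to NP 3 and 0.56, 0.21 and 0.30 in PBS 1 to PBS 3. Lgals3bp stood at -0.27, -0.01 and -0.18 in NP 1 to NP 3 and at 0.17, 0.07 and 0.22 in PBS 1 to PBS 3. In both, NP 1 was the lowest library, NP 2 was the nearest to PBS and PBS 2 was the lowest PBS library. The highest library differed, PBS 1 for the list and PBS 3 for Lgals3bp. NP 2 was the NP library nearest to PBS in 67.6% of all 5964 called genes, so its place is not particular to these genes.

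**Figure D3:**
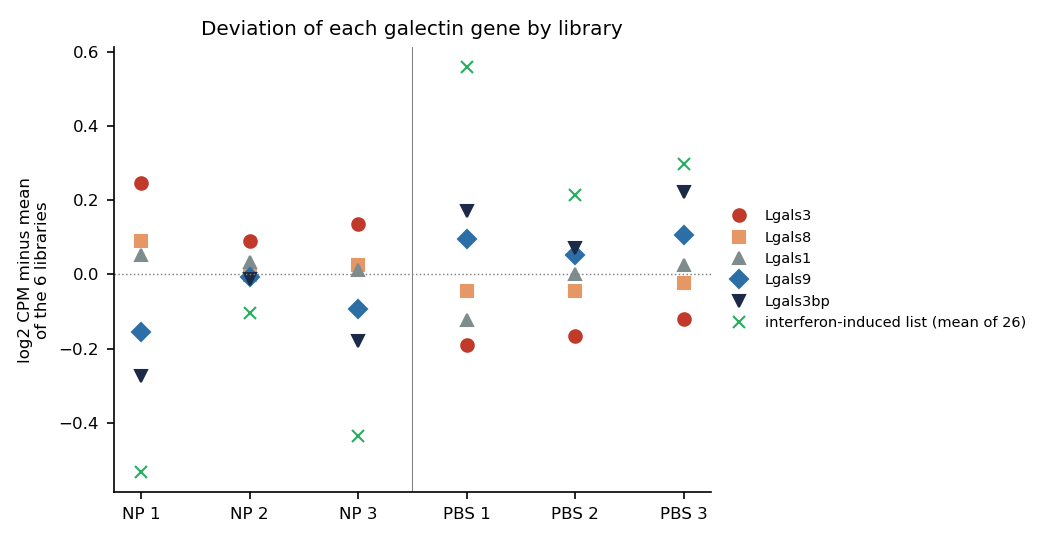
Deviation of log2 CPM from the mean over the 6 libraries for each galectin gene and for the mean of the 26 interferon-induced genes, with NP libraries left of the line and PBS libraries right of it. In NP 2 all 5 genes lie within 0.09 of 0, and in NP 1 Lgals3 stands at 0.25 and Lgals3bp at -0.27.

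The NP libraries kept 1 order in 4 of the 5 genes. NP 2 was nearest to PBS and NP 1 was farthest for Lgals3, Lgals8, Lgals9 and Lgals3bp, and NP 2 was also the NP library nearest to PBS in 67.6% of the 5964 called genes. How often NP 1 was the farthest was not counted over those genes, so this order may be a common one. Lgals8 was not among the called genes. The labels give library numbers 12 and 13 to NP 2 and PBS 2 and numbers 4 to 8 to the other 4 libraries, without saying what the numbers stand for. Among the 4 libraries with low numbers the log2 fold changes were 0.35 for Lgals3, -0.23 for Lgals9 and -0.42 for Lgals3bp (limma voom adjusted p = 5.70e-04, 0.00198 and 7.07e-05), and 0.08 for Lgals1 and 0.09 for Lgals8 (0.268 and 0.1097). Between NP 2 and PBS 2 alone, a single pair with no replicate, the log2 ratios were 0.25 for Lgals3, -0.06 for Lgals9, -0.08 for Lgals3bp, 0.03 for Lgals1 and 0.04 for Lgals8. For all 5 genes the signs were the same in both sets and the differences were smaller in the pair.

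**Figure D4:**
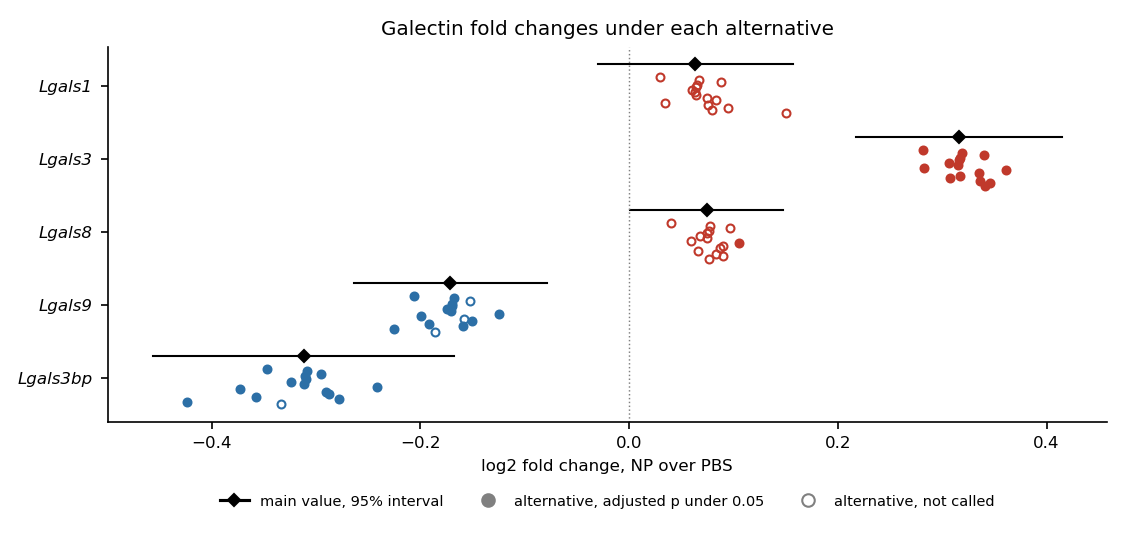
Log2 fold change of NP over PBS for each gene, with the value of the main test and its 95% interval in black and 15 alternatives of scaling, filtering, weighting, blocking and left-out libraries as circles, filled where adjusted p was under 0.05. Lgals3 was called in all 15, Lgals3bp in 14, Lgals9 in 12, Lgals8 in 1 and Lgals1 in 0, and no sign changed.

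Other family genes were low or not detected. Lgalsl, a galectin-like gene, had 7.88, 9.18 and 8.85 CPM in NP 1 to NP 3 and 8.74, 8.65 and 7.34 CPM in PBS 1 to PBS 3, which overlapped (log2 fold change 0.06, limma voom adjusted p = 0.608). Lgals4, an intestinal galectin, had 0.456, 0.530 and 0.579 CPM in NP 1 to NP 3 and 0.474, 0.445 and 0.351 CPM in PBS 1 to PBS 3 (log2 fold change 0.29, SE 0.23, limma voom adjusted p = 0.360). Lgals7 had 1 count in NP 2 and 0 elsewhere. Lgals2, Lgals12, a galectin of fat cells, and Grifin, a lens protein related to galectins, had 0 counts in all 6 libraries. A count of 0 allows up to 0.0432 to 0.0494 CPM of all counts in NP and 0.0533 to 0.0715 CPM in PBS, a limit that covers counting error only. Lgals6 was not analysed here.

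Genes for the response to endosome and lysosome damage, in which galectins act as sensors, rose more often than they fell. Of 53 tested genes of this list 22 rose and 4 fell, or 41.5% and 7.55%, against 19.8% and 21.4% of all tested genes. The number that fell moved from setting to setting. It was 2 without NP 1, 1 without NP 3, 1 without PBS 1, 9 with library totals alone and 8 with sample weights, and against PBS 1 alone 12 rose and 2 fell. The list's median log2 fold change was 0.06. The 4 genes of smallest p were Sqstm1, Tax1bp1, Nbr1 and Gabarapl1, of which the first 3 encode receptors that carry marked cargo into autophagosomes. Another such receptor gene of the list, Calcoco1, named after its values were seen, had a log2 fold change of 0.00 (limma voom adjusted p = 0.939). Sqstm1 had 2311 ± 199 CPM in NP and 1589 ± 72.7 CPM in PBS (log2 fold change 0.54, limma voom adjusted p = 1.41e-04). Tax1bp1 had 486 ± 23.5 CPM in NP and 352 ± 8.89 CPM in PBS (0.46, adjusted p = 4.16e-05), and Nbr1 had 267 ± 16.7 CPM in NP and 206 ± 4.30 CPM in PBS (0.37, adjusted p = 2.28e-04; limma voom, SD, n = 3 each). Gabarapl1, an ATG8 protein of autophagosome membranes, and Rragd, a Rag GTPase that brings mTORC1 to lysosomes, rose by log2 values of 0.43 and 0.37 (limma voom adjusted p = 6.04e-05 and 0.00297).

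Among the other genes of this list chosen for the panel, 3 did not pass the test. Trim16, a ubiquitin ligase that binds galectin-3 at damaged membranes, had 13.9 ± 0.663 CPM in NP and 15.4 ± 0.371 CPM in PBS without passing the test (log2 fold change -0.14, limma voom adjusted p = 0.0615). Pdcd6ip, the ESCRT adaptor ALIX, had 358 ± 2.49 CPM in NP and 358 ± 10.1 CPM in PBS (log2 fold change -0.00, limma voom adjusted p = 0.989). Slc38a9, the lysosomal arginine sensor that galectin-8 contacts, had 37.1 ± 0.575 CPM in NP and 34.7 ± 1.45 CPM in PBS (0.10, limma voom adjusted p = 0.0765). Map3k7, the kinase TAK1 upstream of AMPK, fell by 0.10 on the log2 scale (limma voom adjusted p = 0.0159). This call was lost in 6 of 15 alternatives, with adjusted p of 0.1502 against PBS 1 alone, 0.0854 without NP 3, 0.0595 without PBS 1 and 0.0678 without NP 2 and PBS 2. The other 3 genes of the list that fell were Becn1 (-0.15), Lrrk2 (-0.19) and Lamtor2 (-0.09), which are named because of their small number and were not run under the alternatives one by one.

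Counter-receptors, the glycoproteins that galectins bind, fell more often than they rose. Of 19 tested genes 2 rose and 11 fell, or 10.5% and 57.9%, against 19.8% and 21.4% of all tested genes, with a median log2 fold change of -0.17. Itgam and Mertk, among the 11 that fell, were also counted among the macrophage markers above. The 2 that rose were Slc3a2 and P4hb. Slc3a2, the CD98 heavy chain bound by galectin-3, had 698 ± 43.6 CPM in NP and 495 ± 16.1 CPM in PBS (log2 fold change 0.49, limma voom adjusted p = 6.53e-05). P4hb, a protein disulfide isomerase bound by galectin-9, had a log2 fold change of 0.29 (limma voom adjusted p = 5.34e-04). Tfrc, the transferrin receptor, had 97.1 ± 5.36 CPM in NP and 167 ± 14.8 CPM in PBS (-0.78, limma voom adjusted p = 3.16e-05). Nrp1, a receptor bound by galectin-1, fell by 0.42 and Fn1, fibronectin, by 0.65 (limma voom adjusted p = 3.72e-05 and 1.61e-04). Itgb1, the integrin beta-1 chain, Ptprc, the phosphatase CD45, and Cd44, the hyaluronan receptor, fell by smaller margins of 0.23, 0.21 and 0.13 (limma voom adjusted p = 3.32e-04, 0.00224 and 0.00817). Against PBS 1 alone Cd44 missed the threshold (-0.12, limma voom adjusted p = 0.145). The galectin-9 receptor TIM-3, encoded by Havcr2, had 73.3 ± 9.99 CPM in NP and 62.4 ± 5.80 CPM in PBS, with overlapping groups and no call (0.23, limma voom adjusted p = 0.0826). It was called higher in 3 of 15 alternatives.

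Enzymes that build, cap or trim the sugars galectins recognize changed in both directions. Of 29 tested genes 8 rose and 8 fell, or 27.6% each, against 19.8% and 21.4% of all tested genes, and the median log2 fold change was -0.04. Those that rose include Neu1, a sialidase gene, whose enzyme removes caps (log2 fold change 0.19, limma voom adjusted p = 0.00289). They also include B3gnt5, at only 0.290 ± 0.080 CPM in NP and 0.099 ± 0.049 CPM in PBS. Neither was run under the alternatives by itself. The number that rose was 5 without NP 1, 4 without NP 3 and 3 against PBS 1 alone. B3gnt2, which extends poly-N-acetyllactosamine chains, a preferred galectin ligand, had 166 ± 6.02 CPM in NP and 132 ± 1.39 CPM in PBS (log2 fold change 0.33, limma voom adjusted p = 9.04e-05). Mgat5 and Mgat4a, which add branches to N-glycans, had log2 fold changes of 0.11 and -0.22 (limma voom adjusted p = 0.0115 and 0.0134). Mgat5 lost its call in 2 of 15 alternatives, with adjusted p of 0.205 against PBS 1 alone and 0.0593 without NP 2 and PBS 2. Mgat4a lost it in 5, with adjusted p of 0.0631 without NP 2, 0.0987 without NP 3 and 0.0615 without PBS 1 among them. St6gal1, whose alpha-2,6 sialic acid blocks binding of galectin-1, had 71.6 ± 0.870 CPM in NP and 81.6 ± 2.52 CPM in PBS (-0.19, limma voom adjusted p = 0.00172). The sialyltransferase genes St3gal3 and St3gal6 fell by 0.45 and 1.58 (limma voom adjusted p = 1.51e-04 and 3.42e-04). St3gal6 stood at only 0.427 ± 0.0923 CPM in NP and 1.26 ± 0.0786 CPM in PBS. Not all sialyltransferase genes of the list fell. St3gal1, averaging 168 CPM over the 6 libraries, rose by 0.17 (limma voom adjusted p = 0.0178). It was not run under the alternatives by itself. St3gal2, St3gal4 and St3gal5 were not called (log2 fold changes -0.00, -0.02 and 0.07). These 4 genes were named after their values were seen. The mannosidase gene Man2a1 fell by 0.29 (limma voom adjusted p = 3.41e-04).

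**Figure D5:**
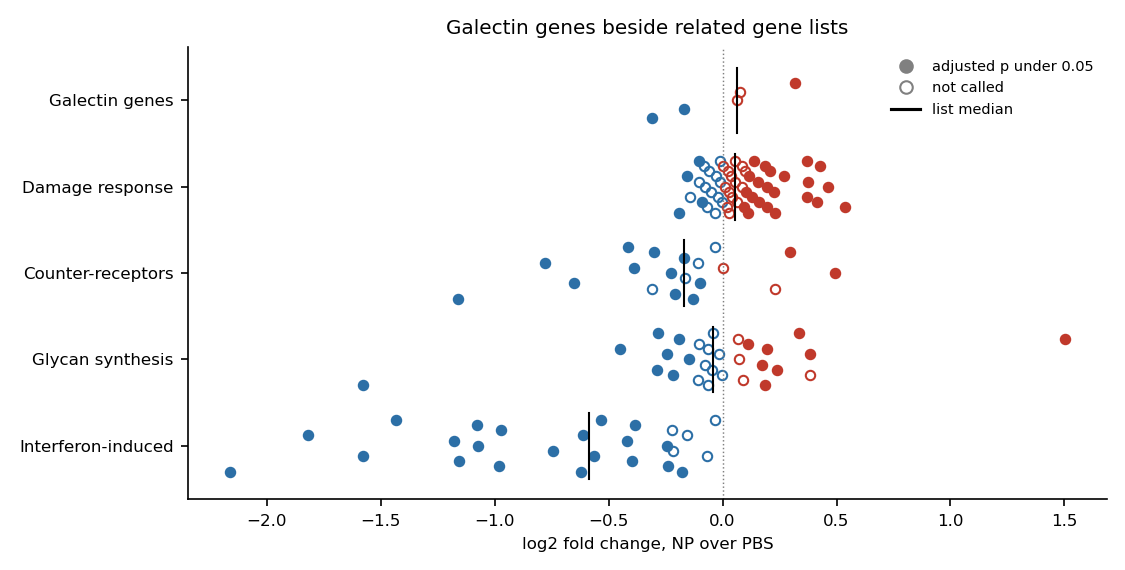
Log2 fold change of NP over PBS for the 5 galectin genes and for the tested genes of the 4 related lists, 1 point a gene, filled where adjusted p was under 0.05, with the median of each list as a black line. The medians run from 0.06 for the damage response list to -0.59 for the interferon-induced list.

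The genes with the most similar profile over the 6 libraries were taken for each galectin gene. Likeness was the root mean square distance between log2 CPM profiles, each centred on its own mean, among 9619 genes of at least 5 CPM. The genes nearest to Lgals3 were Aars, Odc1, Klhl7, Eif1a and Ttc1, at 0.008 to 0.012, against a spread of 0.166 for Lgals3 itself. Aars encodes alanyl-tRNA synthetase and Odc1 ornithine decarboxylase. Nearest to Lgals9 were Ilf2, Slc12a4, Abi2, Clcc1 and Syngr2 at 0.010 to 0.016, and nearest to Lgals3bp were Arhgap9, Nptxr, Unc93b1, Recql4 and Rpa1 at 0.016 to 0.029. Unc93b1 encodes the chaperone of endosomal toll-like receptors. The spreads of Lgals9 and Lgals3bp themselves were 0.097 and 0.178. For Lgals8 they were Cab39, Rab1a, Yipf3, Tnks2 and Rab22a, at 0.010 to 0.011 against a spread of 0.047. For Lgals1 they were Psmd10, Actr10, Atg3, Alkbh3 and Mtfr1, at 0.015 to 0.019 against a spread of 0.058. Beside these small spreads the likeness was looser than for Lgals3. All the distances rest on the same 6 libraries and on the difference between the groups, which many genes share. Between Lgals9 and Lgals3bp the distance was 0.083, because Lgals3bp moved by more, and Pearson's r over the 6 libraries was 0.996, given as a description. Large coefficients were not particular to this pair. Pearson's r was -0.949 for Lgals3 and Lgals9, 0.943 for Lgals3 and Lgals8 and -0.924 for Lgals3 and Lgals3bp. Pairs with Lgals1 had -0.549 to 0.651.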

How the data were processed

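The members and lists were chosen with earlier results of these data known. For the 6 libraries the authors deposited expected counts per gene in 1 table, unscaled for depth and in whole numbers. The submitters' processing notes name STAR 2.7.8a and RSEM 1.3.3, with cutadapt 2.3, MultiQC 1.7 and FastQC 0.11.8, and the build GRCm38. The annotation release is not given in the sources used here. RSEM divides reads shared by similar genes.

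The unit check could not read the quoted, space-separated table, so the unit was entered as a value without a range, and limma voom (limma 3.58.1, R 4.3.3), named in advance for that case, was the main test. It had group as its single term (4 residual degrees of freedom), TMM factors of 0.979 to 1.02, and genes with at least 0.171 CPM (10 counts at the median depth) in 3 libraries and 15 counts in total. Values in groups are mean ± SD. Log2 fold changes are NP minus PBS. Lengths and positions are from GENCODE M21. Genes named in the lists were a fixed panel and the 4 smallest p per list, and a few others named after their values were seen. One gene of the panel is not reported here. The code recovered known changes in simulated counts with a single dispersion and few changed genes. That setting is simpler than these data, so it checks the code and not the calls made here. Within groups, libraries differed by more than sampling noise (chi-square per gene of 5.56 to 18.1).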

Additional observations from a re-analysis of the deposited data

How the results depend on the processing

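Signs of the 5 genes held in all 15 alternatives, with log2 fold changes of 0.28 to 0.36 for Lgals3, -0.23 to -0.12 for Lgals9, -0.42 to -0.24 for Lgals3bp, 0.04 to 0.11 for Lgals8 and 0.03 to 0.15 for Lgals1. Members called lower were 1 without the low-count filter and 0 against PBS 1 alone. Leaving out 1 library at a time gave 1 to 2 members called lower and 1 to 2 called higher, and 2102 to 2971 genes higher and 1975 to 3850 lower over all genes, against 2872 and 3092. Without NP 3 there were 1975 lower. Against PBS 1 alone 1197 genes were higher and 1775 lower, and 3 glycan and 12 damage response genes were higher and 2 damage response genes lower. Damage response genes called lower, 4 in the main test, were 9 with library totals alone, 8 with sample weights, 1 without the low-count filter, 1 without PBS 2 and NP 2 and 2 with the replicate block. Leaving out 1 library gave 1 to 5 of them lower and 17 to 23 higher, and 4 to 8 glycan genes higher. The cause was not tested.

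Among 479 values of the other 32 named genes, 450 kept sign and side of the threshold, 14 lost the call, 5 gained it and 10 turned sign. These were Pdcd6ip, at 0.0024 with median-of-ratios factors, 0.019 without the filter, 0.0011 with the strict filter of 1 CPM and -0.029 to 0.021 with 1 library left out, and Lgalsl, at -0.031 against PBS 1 alone and -0.019 (without PBS 3) to 0.14 with 1 library left out. By longest transcript the level of Lgals1 in NP was 3077 TPM. Deviations from the group means of same-numbered libraries had correlations over genes of -0.01, -0.12 and -0.14. With 3 libraries a group, these values cannot show whether same-numbered libraries shared an animal, culture or preparation. With the replicate block 2353 genes were higher and 2669 lower, and the calls of all 5 members held. Library totals alone moved the median of all genes to -0.04. The count tests edgeR and DESeq2 were not run. Depth limits the family genes at 0 or few counts, not the 5 members.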
